A study of Mus musculus with 6 samples.

Results

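The genes described here are the protein-coding genes on both sides of Prkci on mouse chromosome 3. They are the protein-coding rows of the deposited count table that lie wholly between 21000000 and 41000000 on mm10, leaving out Prkci itself, Slc2a2, Ndufb5 and Ccna2. The window held 82 such rows, and without the 4 genes left out by name there were 78 genes of the 54446 in the table, of which 26 lie at lower coordinates than Prkci (30995747 to 31052959) and 52 at higher ones. RNA was sequenced from jejunal epithelium, released with EDTA and DTT, of 6 co-housed mice aged 3 to 4 months, 1 library per mouse. The 3 controls were Prkci flox/flox, and the 3 knockouts were Prkci flox/flox with Villin-CRE, whose Cre recombinase is driven by the promoter of an epithelial brush border gene. Both genotypes therefore carried the floxed alleles as labelled, and the recombined allele and the Cre transgene were what differed by label. Whether the mice also shared the same flanking DNA is not given by the labels. The sequence of the flanking DNA and the insertion site of the transgene were not analysed here.

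A deletion inside 1 gene can alter its neighbours when it removes an enhancer, an insulating element or a terminator that they share. Strain-derived DNA that travels with a targeted allele is the other known source of expression differences around an engineered locus. In humans a block of chromosome 3 that corresponds to only part of this window is often gained in squamous and ovarian cancers. PRKCI, SOX2, ECT2, PIK3CA, SKIL, MECOM and TBL1XR1 are among its best-known genes. Ect2, a guanine nucleotide exchange factor of cytokinesis, is also a known partner of the kinase that Prkci encodes. Among the other flanking genes are Tnfsf10, the death ligand TRAIL, Il2 and Il21, cytokines of T cells, Anxa5, a calcium-dependent binder of phosphatidylserine, and Mccc1, a mitochondrial enzyme subunit of leucine breakdown.

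Upstream sequence is shown for the flanking genes on which the results turn, namely the 3 most clearly separated genes (Anxa5, Mccc1 and Spata5), the gene within 1 Mb of Prkci with the lowest p (Lrrc31) and the nearest gene to Prkci (Phc3). Each line gives the 250 bases before the annotated start from RefSeq (GRCm38.p6), 5′ to 3′ on the strand of the gene, with every CG dinucleotide in capitals. The positions are chr3:36475888-36476137 (minus strand) for Anxa5, chr3:36000679-36000928 (minus) for Mccc1, chr3:37419700-37419949 (plus) for Spata5, chr3:30699844-30700093 (minus) for Lrrc31 and chr3:30969416-30969665 (minus) for Phc3.
Anxa5: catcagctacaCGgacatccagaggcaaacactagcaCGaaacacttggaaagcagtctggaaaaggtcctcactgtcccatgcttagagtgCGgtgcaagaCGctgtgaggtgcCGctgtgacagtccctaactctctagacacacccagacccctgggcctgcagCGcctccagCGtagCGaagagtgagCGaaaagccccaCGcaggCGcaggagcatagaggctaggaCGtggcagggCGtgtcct
Mccc1: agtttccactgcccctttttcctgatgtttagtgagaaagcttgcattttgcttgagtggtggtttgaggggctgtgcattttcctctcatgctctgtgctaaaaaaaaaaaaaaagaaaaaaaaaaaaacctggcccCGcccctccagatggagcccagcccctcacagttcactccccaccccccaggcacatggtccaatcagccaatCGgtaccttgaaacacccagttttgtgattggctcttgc
Spata5: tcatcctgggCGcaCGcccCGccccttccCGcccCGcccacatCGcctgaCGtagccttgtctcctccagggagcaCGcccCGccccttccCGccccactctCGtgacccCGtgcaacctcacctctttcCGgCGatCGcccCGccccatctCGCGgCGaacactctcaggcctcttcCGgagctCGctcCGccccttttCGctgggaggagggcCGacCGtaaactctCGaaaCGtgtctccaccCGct
Lrrc31: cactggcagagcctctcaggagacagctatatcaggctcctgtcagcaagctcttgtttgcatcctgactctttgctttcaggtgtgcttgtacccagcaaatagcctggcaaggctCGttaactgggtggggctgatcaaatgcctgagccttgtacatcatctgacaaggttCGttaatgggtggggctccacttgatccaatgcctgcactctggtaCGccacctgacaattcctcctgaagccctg
Phc3: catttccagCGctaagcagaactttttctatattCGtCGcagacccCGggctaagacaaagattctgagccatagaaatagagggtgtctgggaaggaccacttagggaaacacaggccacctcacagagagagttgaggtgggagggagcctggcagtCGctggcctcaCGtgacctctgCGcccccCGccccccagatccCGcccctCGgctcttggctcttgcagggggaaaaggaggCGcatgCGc
CG dinucleotides, which mark promoters of the CpG island type where dense, numbered 13 in Anxa5, 2 in Mccc1, 28 in Spata5, 3 in Lrrc31 and 12 in Phc3. The median over 32817 promoter windows of the same length was 6. The quartiles over those windows were 2 and 16, so among the 5 genes Spata5 alone lies outside them.

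The libraries held 18972906 to 26687856 counts each, and the flanking genes took 0.234% to 0.281% of them. The first principal component over all tested genes placed the controls between −33.3 and −30.4, knockout replicate 1 close to them at −21.9, and the remaining knockouts at 68.0 and 50.9. Results are therefore also given without knockout replicate 1. That library was singled out from these same data, so adjusted p-values without it are descriptions and no further support. Xist and Ddx3y counts went against the sex in the series text in 3 libraries. By those counts both knockouts other than replicate 1 were female and replicate 1 was male, against 1 female among the 3 controls. The sexes were thus unequal between the genotypes in the full set, and more so without knockout replicate 1. Enterocyte identity was checked with 12 enterocyte markers, all of them detected, with a summed level of 35739 to 42769 CPM in controls and 38949 to 43571 CPM in knockouts. CPM stands for counts per 1000000 of the library total after edgeR's trimmed-mean scaling. Other epithelial types were less even. Tuft markers summed to 156 to 199 CPM in controls and to 158, 19.4 and 25.1 CPM in knockout replicates 1 to 3. Paneth markers summed to 939 to 3822 against 376 to 1014 CPM, goblet markers to 17857 to 23195 against 17278 to 18853 CPM, and enteroendocrine markers to 175 to 208 against 249 to 339 CPM. The part of these cells in the flanking gene values was not tested.

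Prkci stood at 44.6, 46.9 and 44.0 CPM in controls and at 21.5, 14.6 and 21.4 CPM in the knockouts, with no overlap. Its log2 fold change was −1.24 (SE 0.17, edgeR quasi-likelihood test, Benjamini-Hochberg adjusted p = 0.0719), with a DESeq2 adjusted p of 9.92e-08.

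Of the 78 flanking genes, 49 had enough reads to be tested. Among the other 29, 11 had no read in any library, and 18 had between 1 and 41 reads over the 6 libraries together. No read in 138893449 allows a level of up to 0.0216 CPM (3 counts over all libraries, which covers counting error only, as no molecular identifiers separate PCR copies). The genes without a read included Sox2, a stem cell transcription factor, Samd7, a retinal Polycomb component, and Spata16 and Adad1, genes of male germ cells. Cldn11, the claudin of myelin and Sertoli cells that lies 97.0 kb from Prkci, had 3 reads in all. Fgf2, a fibroblast growth factor, had the most reads of the untested genes, with 1, 6 and 7 in the controls and 9, 3 and 15 in the knockouts. Il21 had 2, 0 and 0 reads in the controls and 9, 5 and 3 in the knockouts, so the groups did not overlap. Other untested genes also had no overlap, among them Nlgn1 and Slc25a31, which were higher in the knockouts, and Slc7a14, which was lower, each with at most 3 reads in a library. The T cell markers, 10 of 10 detected and 8 of them at an unadjusted p below 0.05, summed to 123 to 229 CPM in controls and 265 to 802 CPM in knockouts, and their part in the Il21 reads was not tested. In bulk RNA, fewer cells of a type and less RNA per cell cannot be told apart.

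Levels per kilobase of exon spanned 3 orders of magnitude among the tested genes. In the controls the highest were Atp11b, a phospholipid flippase subunit, at 28.9 CPM per kb, Skil, a repressor of TGF-beta signalling, at 21.4, and Pld1, a phospholipase, at 20.7. Tbl1xr1, a subunit of nuclear corepressor complexes, followed at 15.8 and Sec62, a part of the endoplasmic reticulum protein channel, at 15.7. The lowest was Fat4, a giant cadherin of planar polarity, at 0.026 CPM per kb. The spread between control libraries (SD, n = 3) was 2.67 CPM per kb for Atp11b, 3.59 for Skil and 1.84 for Pld1, so Skil and Pld1 do not differ in level beyond their spread, and neither do Tbl1xr1 (SD 0.48) and Sec62 (SD 1.29). None of these 5 abundant genes differed between the genotypes at an unadjusted p below 0.05. Their log2 fold changes ran from −0.21 for Tbl1xr1 to 0.12 for Skil.

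By CPM alone the highest was 4932438A13Rik, which encodes a very large lipid transfer protein, with means of 479 and 556 CPM and a log2 fold change of 0.22 (95% interval −0.14 to 0.57, edgeR).

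**Figure D1:**
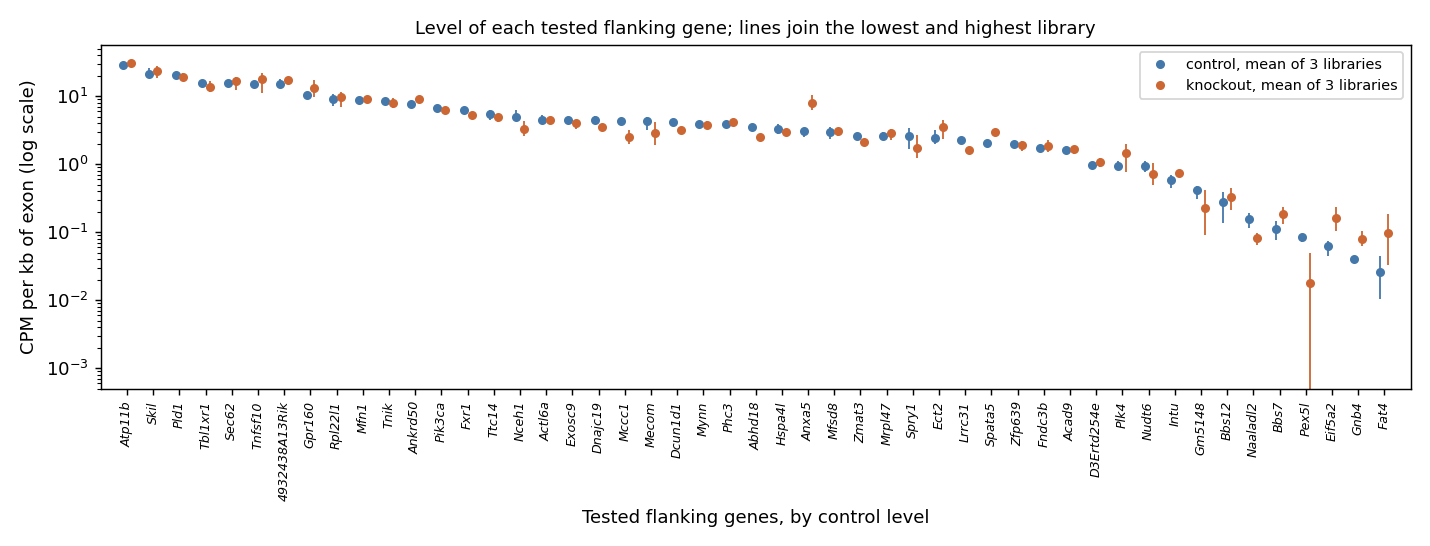
Level of each of the 49 tested flanking genes as CPM per kb of exon on a log axis, ordered by the control mean. Points are the means of 3 libraries and lines join the lowest and highest library, with a library at 0 (knockout replicate 1 for Pex5l) drawn to the lower edge; the genotypes lie close together at high levels, from 28.9 CPM per kb for Atp11b down, and part mainly for Anxa5 and for low genes such as Pex5l and Fat4.

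None of the 49 tested genes passed the adjusted threshold of 0.05 by edgeR, where 0.0597% of the 15068 genes tested did. At an unadjusted p below 0.05 there were 14, 6 higher in the knockouts (Anxa5, Spata5, Eif5a2, Gnb4, Ankrd50 and Fat4) and 8 lower (Mccc1, Abhd18, Lrrc31, Dcun1d1, Naaladl2, Zmat3, Pex5l and Nceh1). These 14 make up 28.6% of the tested flanking genes, where 16.4% of all genes tested, 9.32% higher and 7.09% lower, were below that p. Eif5a2 reached the filter on low counts in the knockouts alone and Pex5l in the controls alone, so they had to differ in order to be tested. Over genes that reached the filter in both genotypes the count was 12 of 47, 5 higher and 7 lower, or 25.5%, where 15.7% of such genes were below that p. Among the 562 tested protein-coding genes of chromosome 3 outside the window the share was 17.3%. By DESeq2, 3 flanking genes passed its adjusted threshold, with Anxa5 and Spata5 higher and Mccc1 lower, where 5.55% of all genes did. Limma-voom passed none of them, where 0.0332% of all genes passed, and put 13 at an unadjusted p below 0.05, where 16.8% of all genes were. An edgeR fit with the replicate number as a block also passed none, with 13 at an unadjusted p below 0.05, where 16.6% of all genes were below that p. Without knockout replicate 1, 11 passed by edgeR, 5 higher and 6 lower, where 17.5% of all genes did. In that set 23 were at an unadjusted p below 0.05, where 33.8% of all genes were. With library totals in place of the scaling, the 14 at an unadjusted p split into 4 higher and 10 lower, and the median of all genes moved from 0.01 to −0.10.

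Positive and negative fold changes were about equally common. Their median log2 fold change was 0.04, with 25 positive and 24 negative values, and the median over all genes tested was 0.01. Over the protein-coding genes of chromosome 3 outside the window it was also 0.01. The median absolute log2 fold change was 0.25 in the flanking genes and 0.23 over all genes tested. In the knockouts, the library medians of the flanking genes relative to the control mean were −0.08, 0.07 and 0.00 in replicates 1 to 3, and in the controls they lay between −0.00 and 0.02. Knockout replicate 1 thus lay below the controls, replicate 2 above them and replicate 3 among them.

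**Figure D2:**
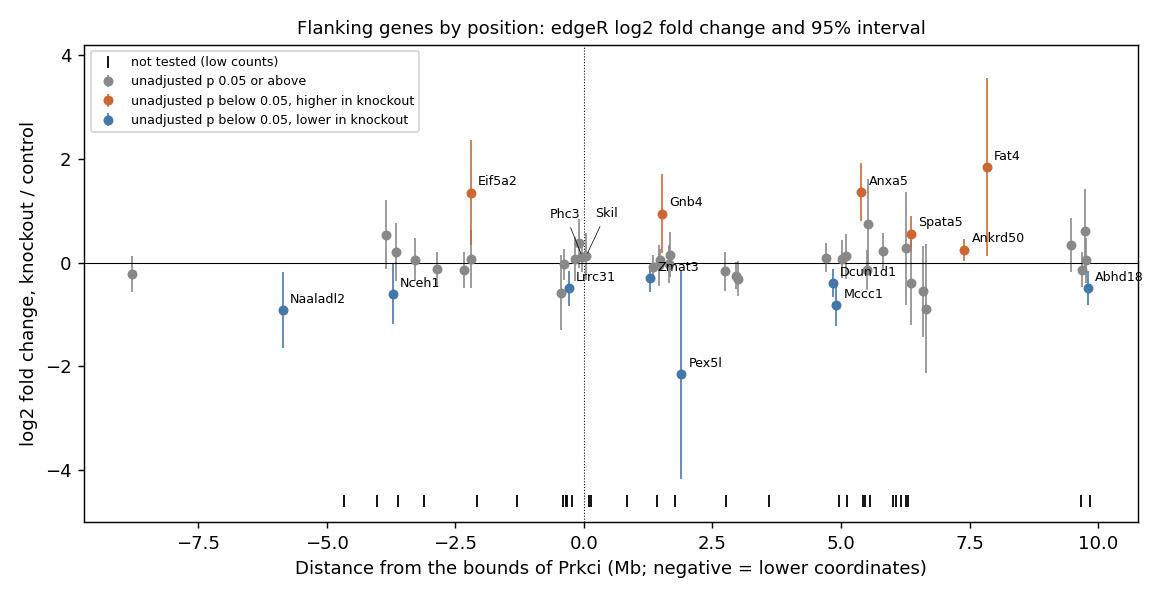
Log2 fold change, knockout over control, of the 49 tested flanking genes against their distance from the bounds of Prkci in Mb, with edgeR 95% intervals; ticks at the bottom are the 29 untested genes. Phc3 and Skil, the genes on either side of Prkci, lie at 0.10 and 0.12, and the genes at an unadjusted p below 0.05 are spread over both sides.

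Closeness to Prkci did not go with a larger difference. Of the 7 tested genes within 1 Mb of its bounds, 1 was at an unadjusted p below 0.05, against 7 of 22 between 1 and 5 Mb and 6 of 20 beyond 5 Mb. Over all genes tested the share was 16.4%. The 7 between 1 and 5 Mb include Eif5a2 and Pex5l, which had to differ in order to be tested, and both genes are also in the values that follow. The median absolute log2 fold change was 0.12, 0.19 and 0.36 in these 3 bands. The medians with sign were 0.08, −0.06 and 0.10. Across the 49 genes, the rank correlation of distance with absolute log2 fold change was 0.31, and that of mean CPM with absolute log2 fold change was −0.53. The second value says that genes with few reads had the wider scatter, and both are descriptions over genes that share the same 6 libraries. On the side of lower coordinates 4 of 16 tested genes and on the side of higher coordinates 10 of 33 were at an unadjusted p below 0.05. Eif5a2 is among the 4 and Pex5l among the 10.

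Phc3, a Polycomb repressor component on the minus strand, has its start 26.3 kb from Prkci, on the side of lower coordinates. It stood at 75.8, 58.7 and 66.7 CPM in controls and at 74.3, 71.97 and 69.96 CPM in the knockouts. The knockout values lay inside the range of the controls. Its log2 fold change was 0.10, with a 95% interval of −0.17 to 0.38 by edgeR. Skil, which starts 42.1 kb beyond Prkci, stood at 248, 189 and 187 CPM in controls and at 271, 178 and 229 CPM in the knockouts. Control replicate 1 and knockout replicate 1 were the highest of their groups, and the groups overlapped. Its log2 fold change was 0.12, with a 95% interval of −0.33 to 0.57, and it was −0.03 without knockout replicate 1.

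Gpr160, an orphan G protein-coupled receptor that ends 98.6 kb from Prkci, was uniform in the controls at 43.6, 43.8 and 43.0 CPM and stood at 40.3, 71.9 and 56.5 CPM in the knockouts. It was thus lower than every control in knockout replicate 1 and higher in the other two knockouts, and overlapped between groups. The difference was 0.37 on the log2 scale (edgeR adjusted p = 0.394), and 0.56 without knockout replicate 1 (edgeR adjusted p = 0.0180). Mecom, which encodes a zinc finger transcription factor and lies 448 kb from Prkci, also split the knockouts. Levels were 39.9, 61.4 and 57.6 CPM in controls and 52.4, 30.6 and 23.7 CPM in the knockouts. Knockout replicate 1 lay within the controls and replicates 2 and 3 below them. Its log2 fold change was −0.58 (edgeR adjusted p = 0.392), and −0.97 without knockout replicate 1 (edgeR adjusted p = 0.0210). That library was set aside on these same data, and without it 17.5% of all genes passed by edgeR.

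Lrrc31, a leucine-rich repeat gene 296 kb from Prkci, was the 1 tested gene within 1 Mb whose genotypes did not overlap. Levels were 11.2, 13.96 and 12.7 CPM in controls and 8.55, 9.32 and 9.01 CPM in the knockouts, which lay close together. The log2 fold change was −0.49 (SE 0.14, edgeR adjusted p = 0.183, DESeq2 adjusted p = 0.0703), and no setting tried brought it past 0.05. Sec62 overlapped, with knockout replicate 1 below all controls at 53.1 CPM and replicates 2 and 3 above them at 78.6 and 83.7 CPM. Mynn, a zinc finger gene, was at 26.1 ± 0.756 CPM in the controls and 25.5 ± 3.04 CPM in the knockouts (SD, n = 3 each). The log2 fold change of Prkci, −1.24, lay outside the 95% intervals of Mynn, Lrrc31, Sec62, Gpr160, Phc3 and Skil and inside that of Mecom, −1.29 to 0.14.

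**Figure D3:**
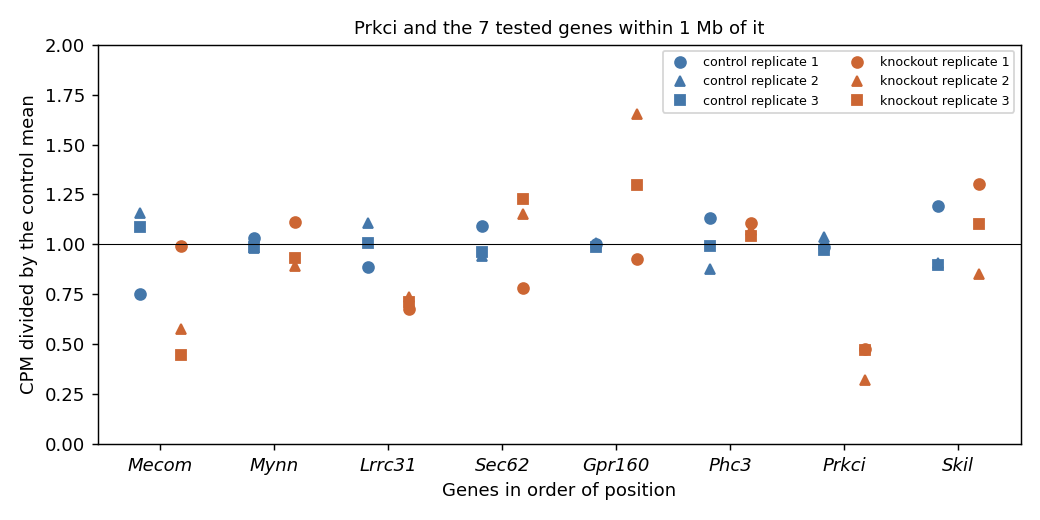
CPM divided by the control mean in each library for Prkci and the 7 tested genes within 1 Mb of it, in order of position. Circles, triangles and squares are replicates 1 to 3; all knockouts lie below the controls for Prkci and Lrrc31, and for Gpr160, Sec62 and Mecom knockout replicate 1 lies apart from replicates 2 and 3.

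Anxa5 had the lowest p of the flanking genes. Levels were 4.44, 6.13 and 6.03 CPM in controls and 18.3, 11.02 and 13.2 CPM in the knockouts. Every knockout was above every control, and knockout replicate 1 was the highest. The means were 5.53 ± 0.944 and 14.2 ± 3.74 CPM (SD, n = 3 each), and the log2 fold change was 1.36 (SE 0.24, edgeR adjusted p = 0.101). DESeq2 gave an adjusted p of 5.13e-05 and edgeR without knockout replicate 1 an adjusted p of 0.0103. Over the settings tried the edgeR, DESeq2 and limma-voom adjusted p ran from 5.13e-05 to 0.412 and the log2 fold change from 1.13 to 1.52.

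Stromal and immune cells also express Anxa5, so the levels of their markers are given beside it. The mean log2 difference of the 7 fibroblast markers from the control mean was 2.21, −0.37 and 1.78 in knockout replicates 1 to 3, and that of the 7 smooth muscle markers 2.96, −0.48 and 3.92. The 10 macrophage and dendritic cell markers gave 1.51, 0.76 and 1.08, and the 5 endothelial markers 1.89, 1.09 and 1.28. No marker of these 4 lists was at 0 in every library. Their summed levels were 297 to 322 CPM in controls and 186 to 282 CPM in knockouts for fibroblasts, and 245 to 262 against 266 to 336 CPM for smooth muscle. For macrophages and dendritic cells they were 131 to 187 against 184 to 238 CPM, and for endothelium 3.79 to 5.94 against 13.0 to 17.5 CPM. At an unadjusted p below 0.05, 1 of 6 tested fibroblast markers was lower, and 4 of 5 smooth muscle, 6 of 10 macrophage and 2 of 3 endothelial markers were higher. The summed level of the fibroblast markers and their mean log2 difference thus had opposite signs in knockout replicates 1 and 3. The 7 B and plasma cell markers summed to 30.1 to 130 CPM in controls and 147 to 324 CPM in knockouts, and 3 were higher at that p. Their mean log2 differences were 2.15, 0.39 and 0.91 in knockout replicates 1 to 3. Those of the 10 T cell markers, whose sums are given above, were 0.77, 1.63 and 0.88. The part of the cells behind all these marker lists in the Anxa5 difference was not tested.

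Mccc1, the biotin-carrying subunit of methylcrotonyl-CoA carboxylase, was the clearest of the lower genes. Levels were 46.7, 49.0 and 47.5 CPM in controls and 34.2, 21.9 and 25.1 CPM in the knockouts. The controls were nearly equal, all knockouts lay below them, and knockout replicate 1 was the nearest to the controls. The log2 fold change was −0.82 (SE 0.17, edgeR adjusted p = 0.118), with a DESeq2 adjusted p of 0.00254. Without knockout replicate 1 it was −1.02 (edgeR adjusted p = 0.00179).

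Dcun1d1, which encodes a factor for the modification of cullins by NEDD8, lies near Mccc1 on the same strand. Its levels were 40.2, 34.0 and 39.0 CPM in controls and 29.9, 26.5 and 29.7 CPM in the knockouts, without overlap. The difference was −0.39 on the log2 scale (SE 0.12, edgeR adjusted p = 0.185). Both genes are overlapped on the other strand by the antisense gene Gm15952, over 31.5 kb of Mccc1 and 4.40 kb of Dcun1d1. Gm15952 had between 12 and 23 reads in each library, 20, 21 and 12 in the controls and 15, 13 and 23 in the knockouts.

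Spata5, an ATPase gene with a role in ribosome maturation, stood at 7.39, 7.33 and 8.79 CPM in controls and at 11.4, 11.2 and 12.2 CPM in the knockouts. The knockouts lay close together and above every control. The log2 fold change was 0.56 (SE 0.14, edgeR adjusted p = 0.157, DESeq2 adjusted p = 0.0269). Nudt6, a nudix hydrolase gene, starts within Spata5 on the other strand, 315 bases from its start. Nudt6 stood at 1.28, 1.83 and 1.55 CPM in the controls and 1.72, 0.828 and 1.04 CPM in the knockouts, with overlap, and its log2 fold change was −0.38 (95% interval −1.20 to 0.43, edgeR).

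Abhd18, an alpha/beta hydrolase gene, and Mfsd8, a lysosomal membrane transporter gene, also start back to back, 84 bases apart in the annotation. Abhd18 stood at 42.7, 34.4 and 39.2 CPM in controls and at 31.2, 27.8 and 24.1 CPM in the knockouts, without overlap. The difference was −0.49 on the log2 scale (SE 0.14, edgeR adjusted p = 0.182). Abhd18 had 970, 826 and 937 reads in the controls and 617, 638 and 602 in the knockouts. On the other strand 6430590A07Rik overlaps 8.3 kb of Abhd18 and had 139 to 238 reads in each library. Reads from that shared stretch cannot be told apart, as the strand setting of the counting is not given. The pseudogene Gm2011 also overlaps Abhd18, over 28419 bases on the same strand, where no strand setting would separate the reads. For Mfsd8 the groups overlapped, at 27.7 ± 5.77 and 28.5 ± 3.91 CPM (SD, n = 3 each), with a log2 fold change of 0.04 (95% interval −0.39 to 0.48, edgeR). Of the 4 such pairs among the flanking genes, with starts within 1000 bases, these 2 had both genes tested. In both, 1 partner was at an unadjusted p below 0.05 and the other was not, and the difference between partners was not tested.

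Ankrd50, a gene of endosomal recycling, differed by a small amount with little spread. Levels were 67.0, 66.0 and 63.3 CPM in controls and 79.9, 73.9 and 79.8 CPM in the knockouts, without overlap, a log2 fold change of 0.25 (SE 0.09, edgeR adjusted p = 0.243). Zmat3, a p53 target that encodes an RNA-binding protein, stood at 27.8, 30.8 and 29.6 CPM against 24.0, 25.4 and 22.4 CPM. Its groups also did not overlap, and the log2 fold change was −0.30 (SE 0.11, edgeR adjusted p = 0.257). Nceh1, a neutral cholesterol ester hydrolase, stood at 32.6, 22.5 and 23.0 CPM in the controls and overlapped, with knockout replicate 1 at 22.8 CPM just above control replicate 2. Knockout replicates 2 and 3 were at 13.5 and 14.98 CPM, and the log2 fold change was −0.61 (SE 0.24, edgeR adjusted p = 0.279).

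The other 5 genes at an unadjusted p below 0.05 had few reads. Eif5a2, a second form of the hypusine-bearing translation factor eIF5A, stood at 0.220, 0.375 and 0.335 CPM in controls and at 1.16, 0.741 and 0.521 CPM in the knockouts. Gnb4, a G protein beta subunit, stood at 0.528, 0.458 and 0.544 against 1.32, 0.784 and 0.881 CPM. In both genes the groups did not overlap and knockout replicate 1 was the highest. Fat4 stood at 0.176, 0.417 and 0.753 against 3.14, 0.566 and 1.24 CPM. Its knockout replicate 2 lay within the controls, and the fibroblast and smooth muscle markers given above were likewise lowest in that knockout; their part in the Fat4 values was not tested.

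Naaladl2, a gene of the glutamate carboxypeptidase family, stood at 1.19, 1.58 and 2.01 CPM in controls and at 0.860, 1.00 and 0.681 CPM in the knockouts, without overlap. Pex5l, a relative of the peroxisomal import receptor gene best known from neurons, stood at 0.836, 0.625 and 0.753 CPM in the controls. In the knockouts it had no read in replicate 1 and stood at 0.436 and 0.040 CPM in replicates 2 and 3. The fitted log2 fold changes were −0.91 for Naaladl2 (edgeR adjusted p = 0.233) and −2.15 for Pex5l (edgeR adjusted p = 0.275), and the second depends on the prior count.

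**Figure D4:**
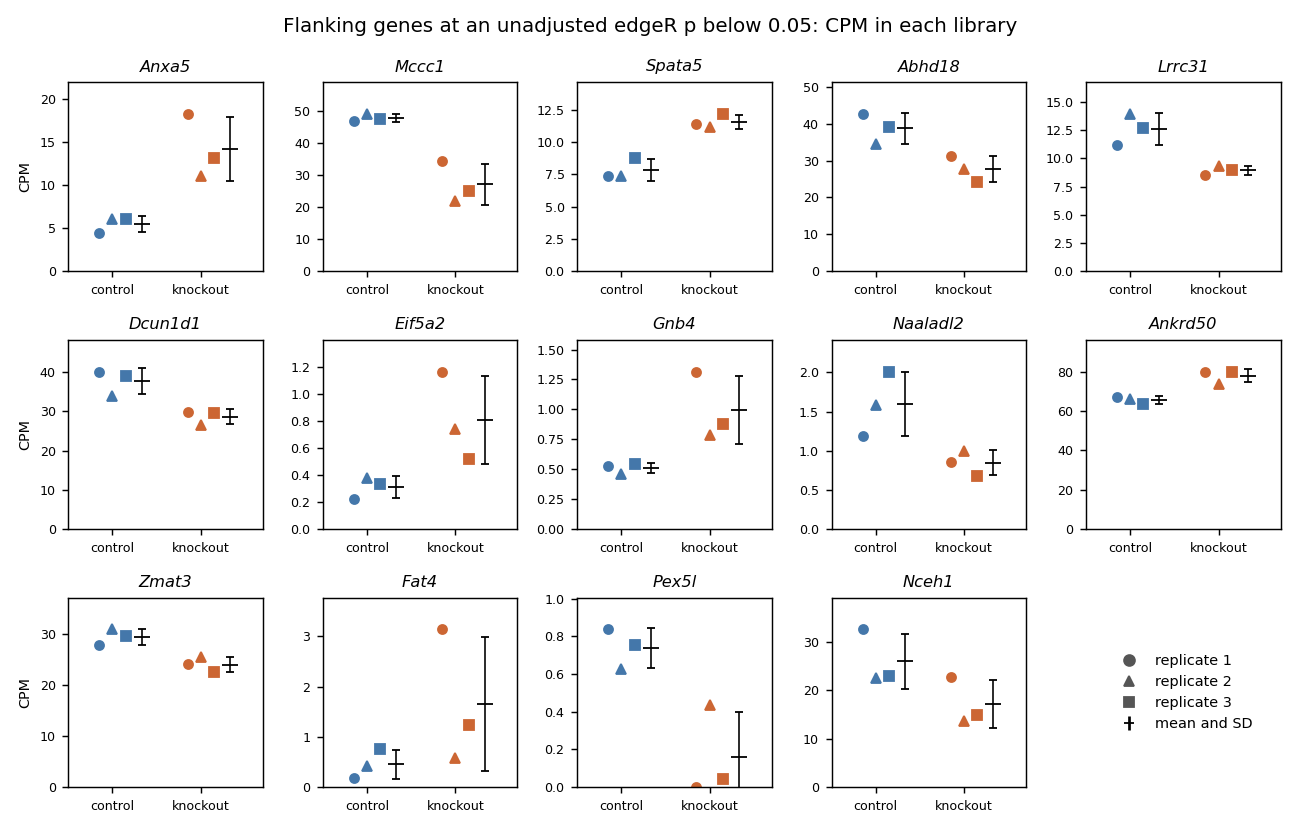
CPM in each library for the 14 flanking genes at an unadjusted edgeR p below 0.05, ordered by p, with the mean and SD of each genotype (n = 3). Every axis starts at 0, where the lower SD bar of Pex5l is cut off; for all but Fat4 and Nceh1 the knockouts lie wholly above or below the controls.

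The groups did not overlap for 15 of the 49 tested genes, 6 higher and 9 lower in the knockouts, where 21.8% of all genes tested did not overlap, 10.0% higher and 11.7% lower. Without Eif5a2 and Pex5l, over genes at the filter in both genotypes, it was 13 of 47, 5 higher and 8 lower, where 21.0% of such genes did not overlap. Besides 12 of the genes above, these were Fxr1, an RNA-binding relative of the fragile X protein, Dnajc19, a chaperone of mitochondrial import, and Intu, a planar polarity and cilium gene. Fxr1 and Dnajc19 overlap by 14303 bases on opposite strands and were both lower, with log2 fold changes of −0.25 and −0.31. Since the strand setting of the counting is not given in the sources used here, reads from their shared stretch cannot be told apart. Of the 49 tested genes, 10 overlap another protein-coding gene on the opposite strand.

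By role, the 7 tested genes of mitochondria and metabolism had a median log2 fold change of −0.31. Mccc1 and Nceh1 were at an unadjusted p below 0.05, both lower. They make up 28.6% of the 7, where 15.7% of all genes at the filter in both genotypes were below that p. Mfn1, the mitochondrial fusion gene and the most abundant of them, stood at 52.9 ± 1.80 CPM in the controls and 55.1 ± 2.43 CPM in the knockouts (SD, n = 3 each). The mitochondrial ribosomal gene Mrpl47 and Acad9, a complex I assembly factor and acyl-CoA dehydrogenase, had log2 fold changes of 0.16 and 0.07.

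Of the 8 tested genes listed under transcription and chromatin, 6 had a negative and 2 a positive fold change. Zmat3, listed there although it encodes an RNA-binding protein, alone was at an unadjusted p below 0.05. That is 12.5%, where 15.7% of all genes at the filter in both genotypes were below that p. Actl6a, a chromatin remodelling subunit, had a log2 fold change of −0.03, Zfp639, a zinc finger gene, of −0.05 and Tbl1xr1 of −0.21. Of the 8 tested signalling genes, Gnb4 alone was below that p, also 12.5%. Pik3ca, the catalytic subunit of phosphoinositide 3-kinase alpha, stood at 60.1 ± 3.36 and 57.0 ± 3.08 CPM (SD, n = 3 each), a log2 fold change of −0.08 (95% interval −0.30 to 0.15, edgeR). Tnik, a kinase of Wnt target gene activation, had a log2 fold change of −0.14, and Spry1, a feedback inhibitor of growth factor receptors, of −0.55 (95% interval −1.43 to 0.32).

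Tnfsf10 stood at 80.5, 86.0 and 75.5 CPM in controls and at 58.4, 116 and 104 CPM in the knockouts, with knockout replicate 1 below and replicates 2 and 3 above every control. The 5 tested genes of cell division, centrosome and cilia had a median log2 fold change of 0.54, and none was at an unadjusted p below 0.05. Ttc14, the most abundant of them, had a log2 fold change of −0.17. Ect2 stood at 10.9, 16.8 and 10.8 against 12.4, 23.6 and 19.9 CPM, and Plk4, the kinase of centriole duplication, at 5.59, 7.54 and 6.45 against 5.21, 13.5 and 11.2 CPM. In both genes replicates 2 and 3 were the highest of the 6 libraries and knockout replicate 1 was within or below the controls. In the list of RNA, translation and protein handling, 1 of the 7 genes at the filter in both genotypes was higher (Spata5) and 1 lower (Dcun1d1) at an unadjusted p below 0.05, beside Eif5a2, which was at the filter in the knockouts alone. In that of membrane, adhesion and channel genes 2 of 6 were higher (Anxa5 and Fat4) and 2 lower (Naaladl2 and Lrrc31). The shares in these lists were thus 28.6% and 66.7%, where 15.7% of all genes at the filter in both genotypes were below that p.

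A list of 23 mouse counterparts of genes of the human chromosome 3 amplicon was drawn up by hand and does not cover the whole block. The 21 tested had a median log2 fold change of −0.03, or −0.04 over the 20 at the filter in both genotypes. Of these 20, Gnb4 was higher and Nceh1, Zmat3 and Dcun1d1 were lower at an unadjusted p below 0.05. That is 20%, where 15.7% of all genes at the filter in both genotypes were below that p. None of the 21 passed the adjusted threshold by edgeR or DESeq2. Mccc1, which lies near Dcun1d1 and passed by DESeq2 (adjusted p = 0.00254), was not in this list. The untested members were Sox2, with no read, and Usp13, a deubiquitinase gene, with 2 reads in knockout replicate 1.

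The split of knockout replicate 1 from the other two knockouts recurred over the region. Without it, the groups did not overlap for 33 of the 49 genes, where 52.3% of all genes tested did not overlap. The 11 genes that then passed by edgeR were Anxa5, Spata5, Gpr160, Plk4 and Tnfsf10, which were higher, and Mccc1, Dcun1d1, Abhd18, Nceh1, Mecom and Gm5148, a predicted gene, which were lower. Of all genes tested in that set, 17.5% passed. Plk4, Tnfsf10 and Gm5148 are named here because their values were seen. Log2 fold changes without that library were 0.92 for Plk4 (edgeR adjusted p = 0.0163), 0.45 for Tnfsf10 (edgeR adjusted p = 0.0211) and −1.59 for Gm5148 (edgeR adjusted p = 0.0411).

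The 300 bases around each start were searched on both strands for 4 motifs in the 45 RefSeq promoters that matched 39 of the 49 tested genes. The interferon-type motif GAAANNGAA was found in 1 of them, 2.22%, at Mecom, against 8.55% of 32817 promoters. TTCNNNGAA, the pattern bound by STAT factors, was found in 2, at Fat4 and Zfp639, 4.44% against 8.29%. TATAAA was found in 2, at Dnajc19 and Rpl22l1, 4.44% against 13.6%. GGNNTTTCC, part of the NF-kappa B pattern, was found in 3, at Intu, Mfn1 and Plk4, 6.67% against 5.83%. GAAANNGAA and TTCNNNGAA can share bases. None of the 5 genes whose upstream sequence is printed held any of the 4 patterns in this window, which says only that these letters are not there.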

How the data were processed

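The authors deposited raw whole-number counts of reads for each gene in each library. The tools named in the submitters' processing notes are bcl2fastq 2.17 and FastQC, then Trim Galore, then STAR 2.5.0a, on mm10. No counter, strand setting or annotation release is given in the sources used here. Sample titles gave genotype, replicate and animal number, and the series text gave sex. The members and lists were chosen with earlier results of these data known.

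All genes were fitted together with edgeR 4.0.16 in R 4.3.3 (trimmed-mean scaling, default filter with minimum count 10, two-sided quasi-likelihood F test, genotype as the sole term). Benjamini-Hochberg adjustment covered the 15068 genes tested. Standard errors were obtained by dividing each log2 fold change by the square root of its F. DESeq2 1.42.0, limma-voom (limma 3.58.1), other scalings and filters, covariates and leaving out each library were alternatives, and the overlap counts with single libraries left out and the counts over genes at the low-count filter in both genotypes were added after seeing the data. The test code was tested on simulated data. All 78 genes matched GENCODE vM21 by identifier and position, which gave strand and exon length. Libraries are single mice, so p-values measure the spread between these mice.

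Named genes were the 10 tested genes nearest to Prkci, up to 12 each way at an unadjusted p below 0.05, the 5 highest in CPM or per kb, and the most abundant gene of each role list. Other genes were named after their values were seen. Marker differences used log2(CPM + 0.1). Deviations from group means correlated at 0.117, 0.119 and 0.149 for libraries with the same replicate number in the titles, all above 0.1, so a replicate block was tried, although no label says what a number marks. No libraries within a group agreed within sampling noise (lowest chi-square per gene 23.8).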

Additional observations from a re-analysis of the deposited data

How the results depend on the processing

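No flanking gene passed the adjusted threshold by edgeR under any scaling, covariate set or the filter of 1 CPM in 3 libraries, or by limma-voom (13 at an unadjusted p). DESeq2 called 3, edgeR with no low-count filter 2 (Anxa5 and Mccc1), and leaving out single libraries gave from 0 to 11, the 11 without knockout replicate 1. With the replicate block none was called and 13 were at an unadjusted p below 0.05, so the block changed no call. That count was 14 in the full set and ran from 9, without control replicate 3 or knockout replicate 3, to 23, without knockout replicate 1, which leaves fewer samples in each case. The count of genes without overlap ran from 15 to 33 without knockout replicate 1. The median log2 fold change was −0.0703 with library totals, which moved the median of all genes to −0.10, −0.0268 with the filter of 1 CPM and −0.0269 with sex by Xist and Ddx3y, and it was −0.0650 for genes between 1 and 5 Mb from Prkci and 0.0956 beyond 5 Mb. Of the values of single named genes under alternatives, 435 kept their direction and side of the threshold, 13 newly passed it and 12 changed sign. The cause of these changes was not tested. With library totals Sec62 was −0.0475, Phc3 −0.00261, Mfn1 −0.0563 and Atp11b −0.0144, and with sex by Xist and Ddx3y Mynn was 0.0150 and Sec62 −0.0386. Over the libraries left out, Mynn ran from −0.13 to 0.0438, Sec62 from −0.0305 to 0.25, Skil from −0.0316 to 0.28 and Zfp639 from −0.17 to 0.0814.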
